A study of Rattus norvegicus with 12 samples.

Results

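The genes described here are Insig1, Insig2, Srebf1, Scap, Npc1, Npc2, Abca1, Abcg1 and Nr1h2, a group of 9. They were chosen as the probe sets whose array annotation gives exactly 1 gene symbol that is one of these names. This gave 11 probe sets for 7 genes, out of 12777 probe sets and 10411 genes with 1 symbol on an array of 15923 probe sets. Npc1 and Abca1 had no such probe set, so their expression was not analysed here.

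Sterol sensing in mammalian cells runs through the SREBP transcription factors, which are held in the endoplasmic reticulum by the escort protein SCAP and the INSIG proteins when sterols are plentiful and are sent to the Golgi and cut when sterols are scarce. Sterols that enter the cell by endocytosis leave the lysosome through NPC1 and NPC2, and surplus sterol is exported by ABCA1 and ABCG1 under the control of the LXR nuclear receptors. In liver cells these circuits set the rate of cholesterol and fatty acid synthesis.

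RNA came from 2 rat liver epithelial cell lines, GP7TB (tumor cells, a chemically transformed derivative of WB-F344) and WB-F344 (normal diploid cells from an adult male Fischer-344 rat). After routine growth to about 80% confluence, each was cultured for 18 hours in a custom Chee's medium with 5% fetal bovine serum. The medium was either arginine-deficient (0 g/l added arginine) or arginine-sufficient (0.168 g/l). Because the serum was not dialyzed, the authors describe an amino acid imbalance and not total arginine starvation. Below, without arginine means without added arginine. The 4 groups were thus arginine-deficient and arginine-sufficient tumor cells, and arginine-deficient and arginine-sufficient normal cells, with 3 cultures and 3 arrays each, 12 arrays in all. Each line is 1 line, so a difference between the lines is not a difference between tumors and normal liver in general.

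Of 6 hepatocyte marker genes measured, 0 passed the expression threshold on every array of either line, so the cells are named here by line and not as hepatocytes. The epithelial keratin gene Krt8 and the mesenchymal gene Vim passed it on every array. Of 6 bile duct and simple epithelium markers, 2 (Krt7 and Krt8) passed it on all 6 arrays of each line. The other 4 (Krt18, Krt19, Epcam and Cdh1) passed it on none. The summed signal of 6 mesenchymal and stellate cell markers was 15596 to 23070 in arginine-deficient tumor cells, 17538 to 21766 in arginine-sufficient tumor cells, 54767 to 79544 in arginine-deficient normal cells and 71208 to 93160 in arginine-sufficient normal cells. Of these 6 markers, 5 passed the threshold on all 6 normal arrays and 4 on all 6 tumor arrays. Only Col1a2 passed it on 6 of 6 normal arrays and on 0 of 6 tumor arrays. This sum moves with the comparison of the lines, and its part in those results was not tested. RNA quality was read from control probe sets at both ends of a transcript. For Gapdh the ratio of end to start ran from 0.998 to 1.38, and in 6 of 6 pairs the culture without arginine had the higher value, against 2 of 6 for Actb. The part of this in the arginine results was not tested.

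Signals are Microarray Suite 5.0 values on a linear scale, and a probe set was tested when it was among the highest 54% of an array (a signal of 146 to 191, depending on the array) on at least 3 of the 12 arrays. Of the 11 member probe sets, 8 met this and cover all 7 genes, and the other 3 (Abcg1 1368103_at and 1373995_at and Nr1h2 1389854_at) had low signals and got no test. Differences are log2 changes with their standard errors from limma, and an adjusted p under 0.05 over all 9745 tested probe sets counts as passing. Pairs of cultures are numbered as experiments 1 to 3 in each line, and values are given in that order. A paired adjusted p is that of the same limma fit with the experiment added as a block.

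The promoters of the members whose groups did not overlap in tumor cells are shown so that their motifs can be read beside the values. Sequences are those of RefSeq in the GRCr8 assembly, where 8 of the 9 genes had a window of 300 bases and Srebf1 had 2, which made 9 windows. The bases before the start of transcription are given 5' to 3', cut short where they enter the annotated gene, with the NF-Y box (CCAAT or its reverse complement) in capitals.
Insig1, chr4:8057813-8058019, minus strand: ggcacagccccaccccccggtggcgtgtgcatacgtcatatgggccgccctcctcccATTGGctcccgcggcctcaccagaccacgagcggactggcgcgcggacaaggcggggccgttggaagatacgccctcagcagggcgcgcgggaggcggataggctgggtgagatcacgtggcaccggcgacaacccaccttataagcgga
Srebf1, chr10:45519011-45519260, minus strand, inside the annotated gene: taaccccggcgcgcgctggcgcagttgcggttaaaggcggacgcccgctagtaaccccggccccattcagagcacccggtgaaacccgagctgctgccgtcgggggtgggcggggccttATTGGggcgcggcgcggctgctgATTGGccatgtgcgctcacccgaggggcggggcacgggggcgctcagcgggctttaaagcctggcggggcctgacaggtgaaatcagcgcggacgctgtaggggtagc
Srebf1, chr10:45529165-45529414, minus strand: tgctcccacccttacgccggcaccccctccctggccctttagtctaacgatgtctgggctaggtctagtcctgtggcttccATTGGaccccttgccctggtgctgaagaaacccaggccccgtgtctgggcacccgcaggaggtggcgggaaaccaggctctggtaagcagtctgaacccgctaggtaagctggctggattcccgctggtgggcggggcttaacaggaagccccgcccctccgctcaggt
Npc2, chr6:110149246-110149495, minus strand: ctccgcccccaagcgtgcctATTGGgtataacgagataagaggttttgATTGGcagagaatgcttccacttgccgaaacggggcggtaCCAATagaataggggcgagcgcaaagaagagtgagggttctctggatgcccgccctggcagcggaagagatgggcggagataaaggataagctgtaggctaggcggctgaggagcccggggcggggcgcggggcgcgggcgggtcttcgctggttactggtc

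The NF-Y box, the site of a factor that works beside SREBP at many sterol genes, occurred in 5 of the 9 member windows, those of Insig1, Insig2, Srebf1 (both windows) and Npc2, and in 37.5% of all 33469 windows. The sterol element of the LDL receptor type (TCACNCCAC, both strands) was found in 0 member windows and in 1.12% of all windows. The LXR repeat (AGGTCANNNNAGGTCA) was found in 0 member windows and in 0.00598% of all, and the amino acid response element (TGATGNAA) in 0 member windows and in 3.98% of all. The E box CACGTG occurred in the windows of Insig1, Scap and Abca1, and in 6.42% of all windows. The GC box GGGCGG occurred in 7 of the 9 member windows and in 33.1% of all windows. These counts describe exact letters in a short window, and a window without a match says nothing of sites farther away or of sites with other letters.

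The comparison of arginine-deficient with arginine-sufficient cells asks how the genes responded to 18 hours without added arginine. In tumor cells 0 of the 8 member probe sets passed by limma, where 186 of 9745 passed over the array (1.91%). An unadjusted p under 0.05 was found for 2 of the 8, and over the array for 634 of 9745 above and 857 below 0. In normal cells 0 passed, where 16 of 9745 passed (0.164%). There 1 of the 8 had an unadjusted p under 0.05, and over the array 397 of 9745 above and 523 below 0 did. In the paired fit 3 of the 8 passed in tumor cells, Insig1 and Srebf1 lower and Npc2 higher, where 11.0% of all tested probe sets passed. In normal cells 0 passed in that fit, where 2.41% of all did. In tumor cells the groups did not overlap for 3 of the 8, against 23.2% of all tested probe sets, and 2 of these 3 were lower without arginine, against 13.6% of all. In normal cells they did not overlap for 2 of the 8, against 13.9%, and both were lower, against 7.76%.

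Insig1 encodes an INSIG retention protein and is itself a gene that SREBPs transcribe. Its signal was 352, 112 and 206 in arginine-deficient tumor cells, against 535, 488 and 389 in arginine-sufficient tumor cells. All arginine-deficient tumor arrays lay below all arginine-sufficient ones. In normal cells it was 882, 953 and 759 without arginine, against 3664, 1204 and 2108 with it, again with no overlap. The log2 change was -1.22 ± 0.40 in tumor cells, or 2.33-fold lower (adjusted p = 0.144, paired adjusted p = 0.0266). In normal cells it was -1.29 ± 0.40, or 2.44-fold lower (adjusted p = 0.320, paired adjusted p = 0.0514).

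The size of the Insig1 change differed between experiments. Within experiments the log2 ratio was -0.61, -2.13 and -0.92 in tumor cells and -2.05, -0.34 and -1.47 in normal cells. Insig1 was thus lower without arginine in 6 of 6 pairs, and the share of all tested probe sets with that pattern was not counted. The value of 112 behind the ratio of -2.13 lay below the expression threshold of its array, and with signals under each array's 46th percentile raised to it the change in tumor cells was -1.03 (adjusted p = 0.143). The tumor cultures of experiment 2, with the widest ratio, were recorded as harvested without trypsin and those of the other two with it, and the part of this was not tested. Of the 9 possible ratios of arginine-deficient to arginine-sufficient arrays, 5 in tumor cells and 6 in normal cells reached a 2-fold decrease. At least 6 of 9 ratios at 2-fold was met by 2.48% of all tested probe sets in tumor cells and by 1.13% in normal cells. Without the arginine-deficient tumor array of experiment 2, the change in tumor cells was -0.80, and without the arginine-sufficient normal array of experiment 1 the change in normal cells was -0.89. Within chip lots of tumor cells the change was -1.59 (2 arrays against 2) and -0.47 (1 against 1, from experiments 1 and 2). Within scan days of normal cells it was -1.47 (1 against 1) and -1.999 (2 arginine-deficient arrays against 1). The arginine-sufficient normal array of experiment 2 was scanned on another day and is in neither. With so few arrays these values are a description only, and some of them split the pairs. The tested difference between the lines' responses was 0.07 ± 0.56 (adjusted p = 0.997), a standard error too wide to show that the responses were alike.

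**Figure D1:**
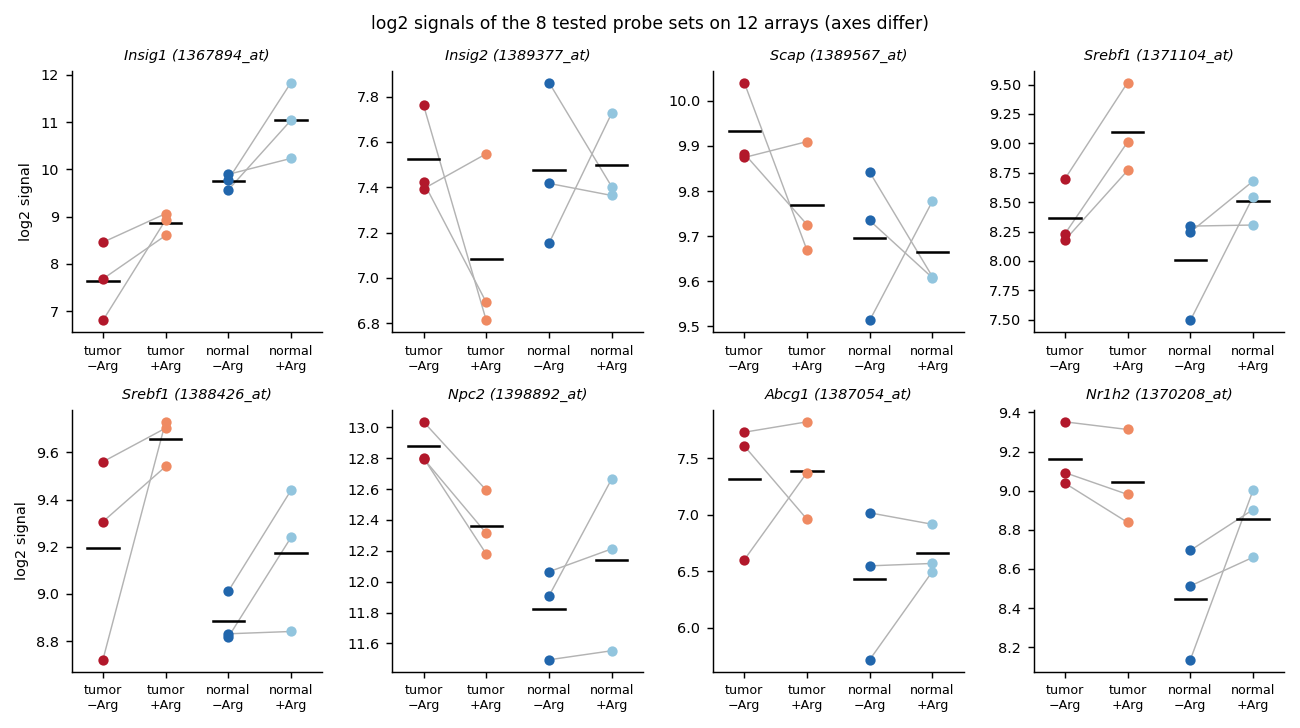
log2 signal of each tested member probe set on every array, one panel per probe set with its own axis. Points are arrays, black bars are group means, and gray lines join the cultures of 1 experiment. In the Insig1 panel the 4 groups do not overlap, with tumor −Arg at 112 to 352 and normal +Arg at 1204 to 3664 on the linear scale.

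Insig2 encodes the other INSIG protein. Its signal was 172, 168 and 217 in arginine-deficient tumor cells and 119, 187 and 112 in arginine-sufficient tumor cells, and the groups overlapped. The normal cells had 142, 171 and 233 without arginine and 212, 165 and 169 with it, again with overlap. The log2 change was 0.44 ± 0.28 in tumor cells (adjusted p = 0.492) and -0.02 ± 0.28 in normal cells (adjusted p = 0.990). Insig2 passed the expression threshold on 3 of 3 arginine-deficient and 1 of 3 arginine-sufficient tumor arrays, and with low signals raised as for Insig1 its change in tumor cells was 0.0766. Scap, the escort protein of SREBP, had signals of 731 to 1053 over all 12 arrays. They were 1053, 944 and 939 in arginine-deficient tumor cells and 814, 847 and 962 in arginine-sufficient tumor cells. In normal cells they were 918, 852 and 731 without arginine and 782, 780 and 878 with it. The groups overlapped in both lines. Its log2 change was 0.16 ± 0.16 in tumor cells (adjusted p = 0.673) and 0.03 ± 0.16 in normal cells (adjusted p = 0.974).

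Srebf1, the gene of the SREBP-1 proteins, which drive fatty acid synthesis genes in liver, was measured by a pair of tested probe sets. On 1371104_at the signal was 415, 300 and 289 in arginine-deficient tumor cells, against 733, 516 and 436 in arginine-sufficient tumor cells, with no overlap. In normal cells it was 303, 314 and 180 without arginine, against 410, 316 and 374 with it. The normal groups did not overlap, but experiment 2 differed by only 314 against 316. The arrays of that pair differed in scan day and chip lot, and the part of this was not tested. The log2 change was -0.73 ± 0.26 in tumor cells (adjusted p = 0.180, paired adjusted p = 0.0352) and -0.50 ± 0.26 in normal cells (adjusted p = 0.592).

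On the other Srebf1 probe set, 1388426_at, the signal was 755, 422 and 633 in arginine-deficient tumor cells and 834, 849 and 745 in arginine-sufficient tumor cells. These groups overlapped, because the highest arginine-deficient value, that of experiment 1, lay above the lowest arginine-sufficient value. Normal cells gave 451, 455 and 516 without arginine and 604, 458 and 694 with it, also with overlap. The log2 change was -0.46 ± 0.22 in tumor cells (adjusted p = 0.342, paired adjusted p = 0.129) and -0.29 ± 0.22 in normal cells (adjusted p = 0.736). Both probe sets were lower without arginine in 6 of 6 pairs, but in normal cells experiment 2 differed by only 455 against 458 on 1388426_at. The share of all tested probe sets lower in 6 of 6 pairs was not counted. The mean of the 2 probe sets gave -0.60 in tumor cells and -0.39 in normal cells.

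Npc2 encodes the soluble lysosomal protein that hands cholesterol to NPC1. Its signal was 7137, 7117 and 8396 in arginine-deficient tumor cells, against 4638, 5090 and 6177 in arginine-sufficient tumor cells. All arginine-deficient tumor arrays lay above all arginine-sufficient ones. In normal cells it was 4283, 2884 and 3841 without arginine and 4746, 3003 and 6497 with it, and these groups overlapped. The log2 change was 0.52 ± 0.24 in tumor cells (adjusted p = 0.336, paired adjusted p = 0.0320) and -0.32 ± 0.24 in normal cells (adjusted p = 0.736, paired adjusted p = 0.231).

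Npc2 was thus higher without arginine in 3 of 3 tumor experiments and lower in 3 of 3 normal ones, where the log2 ratios were -0.15, -0.06 and -0.76. Without the arginine-sufficient normal array of experiment 3 the change in normal cells was -0.0605. The difference between the responses was 0.84 ± 0.35 (unadjusted p = 0.0297, adjusted p = 0.824, paired adjusted p = 0.123), which did not pass. In that comparison 0 of 9745 probe sets passed by limma (0.0%), with 268 above and 282 below 0 at an unadjusted p under 0.05, and 5 of 9745 (0.0513%) passed in the paired fit. Of the 8 member probe sets 0 passed in either fit, and 1 had an unadjusted p under 0.05.

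Nr1h2 encodes LXR beta, the oxysterol receptor that switches on efflux and lipogenic genes. On its tested probe set, 1370208_at, the signal was 526, 546 and 653 in arginine-deficient tumor cells and 458, 505 and 636 in arginine-sufficient tumor cells, with overlap. Signals in normal cells were 281, 365 and 414 without arginine and 512, 404 and 479 with it, again with overlap. The log2 change was 0.12 ± 0.20 in tumor cells (adjusted p = 0.846) and -0.41 ± 0.20 in normal cells (adjusted p = 0.549), and their difference was 0.52 ± 0.28 (adjusted p = 0.934). As for Npc2, all 3 tumor ratios were above 0 and all 3 normal ones below 0, a pattern seen in 2.13% of all tested probe sets (208 of 9745).

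Abcg1, the sterol exporter that loads high density lipoprotein, was near the threshold. Its tested probe set, 1387054_at, had 97.1, 212 and 195 in arginine-deficient tumor cells and 166, 226 and 125 in arginine-sufficient tumor cells. In normal cells it had 52.6, 93.6 and 130 without arginine and 90.4, 95.0 and 121 with it. The groups overlapped in both lines, and the changes were -0.07 ± 0.40 in tumor cells (adjusted p = 0.964) and -0.23 ± 0.40 in normal cells (adjusted p = 0.907).

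The untested probe sets were low on every array. On Abcg1 1368103_at the signal was 88.3, 93.1 and 65.4 in arginine-deficient tumor cells, against 16.6, 46.3 and 32.9 in arginine-sufficient tumor cells, and 6 of 9 ratios reached a 2-fold increase. In normal cells the same probe set had 23.9, 17.8 and 66.4 without arginine and 19.9, 71.2 and 54.9 with it, and the groups overlapped. On the third Abcg1 probe set, 1373995_at, the signals ran from 34.3 to 99.3 over all arrays, with 0 of 9 ratios at 2-fold in either direction in tumor cells. The Nr1h2 probe set 1389854_at ran from 7.6 to 68.5, with 5 of 9 ratios at a 2-fold increase in normal cells, where it was 52.3, 44.0 and 28.8 without arginine and 14.1, 26.4 and 18.0 with it. In normal cells the Nr1h2 probe sets thus lay on opposite sides, the untested one higher and the tested one lower without arginine.

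**Figure D2:**
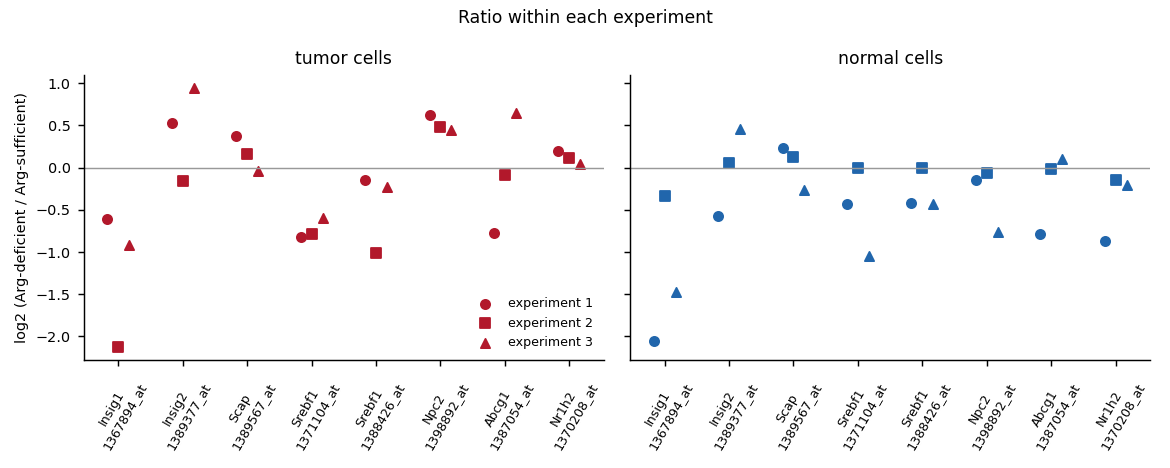
log2 ratio of arginine-deficient to arginine-sufficient signal within each experiment, for the 8 tested member probe sets, with tumor cells on the left and normal cells on the right. Insig1 and both Srebf1 probe sets are below 0 in all 6 experiments, while Npc2 and Nr1h2 are above 0 in the tumor experiments and below 0 in the normal ones.

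The comparison of tumor with normal cells was made at each arginine level, with the caution that cell line, scan day and chip lot cannot be told apart in it, since the tumor arrays were all scanned on 1 day and the normal arrays on other days. Insig1, the SREBP retention gene, was lower in tumor cells in both media. Without arginine the log2 difference was -2.10 ± 0.40, or 4.29-fold lower (adjusted p = 0.000979), and with arginine it was -2.17 ± 0.40, or 4.51-fold lower (adjusted p = 0.000941). Insig1 was the 1 member of 8 that passed with arginine, where 34.6% of all probe sets passed. Its groups ranked normal arginine-sufficient, normal arginine-deficient, tumor arginine-sufficient and tumor arginine-deficient, and no neighbouring groups in this order overlapped. The share of all tested probe sets with 4 separate groups was not counted.

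Without arginine 3 of the 8 passed (Insig1 lower, Npc2 and Nr1h2 higher), against 40.7% of all probe sets. Npc2 was higher in tumor cells, at 7550 ± 733 against 3669 ± 715 in normal cells (SD, n = 3 each), a log2 difference of 1.06 ± 0.24 (adjusted p = 0.00385). With arginine the difference of Npc2 was 0.22 ± 0.24 (adjusted p = 0.526). Nr1h2 1370208_at was also higher without arginine, by 0.71 ± 0.20 (adjusted p = 0.0116), but not with arginine, at 0.19 ± 0.20 (adjusted p = 0.501). The Nr1h2 call was lost without the arginine-deficient tumor array of experiment 3 (adjusted p = 0.0517) or the arginine-deficient normal array of experiment 1 (adjusted p = 0.0544). The untested Nr1h2 probe set, 1389854_at, was under the expression threshold, with means of 33.7 in tumor and 41.7 in normal cells without arginine.

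The other members did not pass at either arginine level. Srebf1 1371104_at was 0.59 ± 0.26 higher in tumor cells with arginine (adjusted p = 0.0966, and 0.0451 after quantile normalization) and 0.36 ± 0.26 higher without it (adjusted p = 0.296). Srebf1 1388426_at was 0.48 ± 0.22 higher with arginine (adjusted p = 0.107). Abcg1 1387054_at was 0.89 ± 0.40 higher without arginine (adjusted p = 0.0965), a difference set against signals under the expression threshold on 6 of 6 normal arrays. It met the filter only through tumor arrays, 2 of 3 arginine-deficient and 1 of 3 arginine-sufficient ones. The filter thus favored a higher tumor value, and nothing is read from its p-values between the lines. The difference was 1.24 without the arginine-deficient tumor array of experiment 1 (adjusted p = 0.0267), and 0.156 with low signals raised (adjusted p = 0.430). Insig2 differed by 0.05 ± 0.28 without and -0.41 ± 0.28 with arginine, and Scap by 0.24 ± 0.16 and 0.10 ± 0.16.

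**Figure D3:**
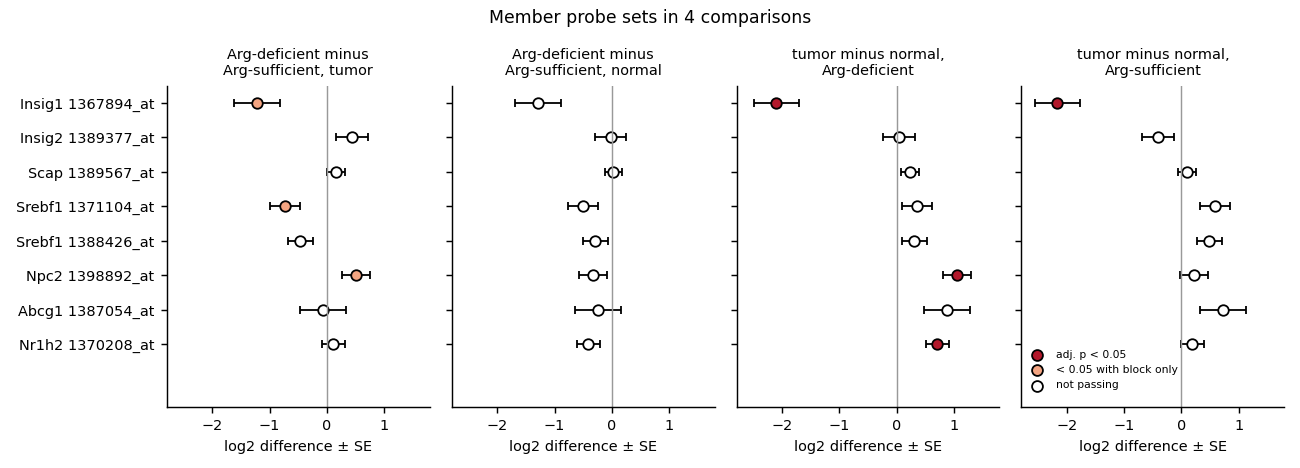
log2 difference with its standard error (n = 3 arrays per group) for the 8 tested member probe sets in 4 comparisons. Dark points pass the adjusted threshold, pale points pass in the paired fit only, and open points do not pass. Insig1 lies at -1.22 and -1.29 in the arginine comparisons of tumor and normal cells, and at -2.10 and -2.17 between the lines without and with arginine.

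Over the 12 arrays, with each line's mean removed, the members whose log2 signal most resembled that of Insig1 were Srebf1 on 1388426_at (r = 0.87) and on 1371104_at (r = 0.82). With group means removed these became 0.79 and 0.61, so the likeness was also present among arrays of the same group. Over all tested genes with 1 symbol, the 5 most like Insig1 were Dhx30 (r = 0.94), an RNA helicase, Helz (0.94), a helicase, Sqle (0.93), squalene epoxidase of sterol synthesis, Fam234b (0.93) and Trim37 (0.92), a ubiquitin ligase. The arrays share cultures, scan days and scaling, so these correlations are a description with no test.

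The other genes of the pathway were taken from lists with 1 probe set per gene. For the 21 tested genes of SREBP processing and INSIG turnover, 0 passed in either arginine comparison and the median log2 change was -0.02 in tumor cells and 0.08 in normal cells, where that of all 7192 tested genes was -0.04 in each. The smallest unadjusted p in this list belonged to Erlin1, a membrane protein of the endoplasmic reticulum that promotes INSIG degradation, at 0.71 ± 0.22 in tumor cells (adjusted p = 0.117, paired adjusted p = 0.0194), followed by Ube2g2, a ubiquitin conjugating enzyme of that degradation, at 0.74 ± 0.23 in tumor cells (adjusted p = 0.129, paired adjusted p = 0.0112). In the paired fit 2 of the 21 rose and 0 fell in tumor cells, where 374 rose and 438 fell of all 7192 genes. In normal cells Erlin1 was 0.67 ± 0.22 (adjusted p = 0.325).

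Of 7 tested LXR partners and targets 0 passed, and the medians were -0.16 in tumor cells and 0.18 in normal cells. Rxra, the dimer partner of LXR, had -1.03 ± 0.36 in tumor cells (adjusted p = 0.180) and -0.96 ± 0.36 in normal cells (adjusted p = 0.421). Ncoa1, a nuclear receptor coactivator, had 0.85 ± 0.41 in normal cells (adjusted p = 0.540). Of 18 tested genes of sterol uptake, lysosomal export, esterification and carriage 0 passed, with medians of 0.05 in each line. Cav1, the coat protein of caveolae, had -0.54 ± 0.17 in tumor cells (adjusted p = 0.130, paired adjusted p = 0.0156), and Dbi, the acyl-CoA binding protein, had -0.63 ± 0.21 (adjusted p = 0.151, paired adjusted p = 0.0214). In the paired fit 1 gene of the 18 rose and 3 fell in tumor cells, against the same 374 and 438 of 7192 genes.

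The sterol synthesis genes are activated by SREBP. Of 16 tested genes 16 were below 0 in normal cells, with a median of -1.11, and 2 fell past the threshold. Of all 7192 tested genes, 4013 were below 0 in normal cells and 2 fell past the threshold. Mvd, the decarboxylase of the mevalonate pathway, was -3.58 ± 0.55 (adjusted p = 0.0213) and Acat2, the cytosolic thiolase, -1.62 ± 0.28 (adjusted p = 0.0439). In the paired fit 11 of the 16 fell in normal cells, against 86 of the 7192 genes. In tumor cells 0 passed and the median was -0.33. There 12 of 16 were below 0, against 3942 of 7192 genes, and 1 fell in the paired fit, against 438 of 7192. In the difference between the responses 15 of 16 were above 0, against 3605 of 7192 genes, and 0 passed. Of the 12 tested fatty acid synthesis genes 0 passed, and their medians were -0.25 in tumor cells and -0.39 in normal cells. Fasn, fatty acid synthase, was -0.88 ± 0.21 in normal cells (adjusted p = 0.154, paired adjusted p = 0.0210) and Acsl3, a ligase of long chain fatty acids, was -1.47 ± 0.39 in tumor cells (adjusted p = 0.0773, paired adjusted p = 0.00432).

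**Figure D4:**
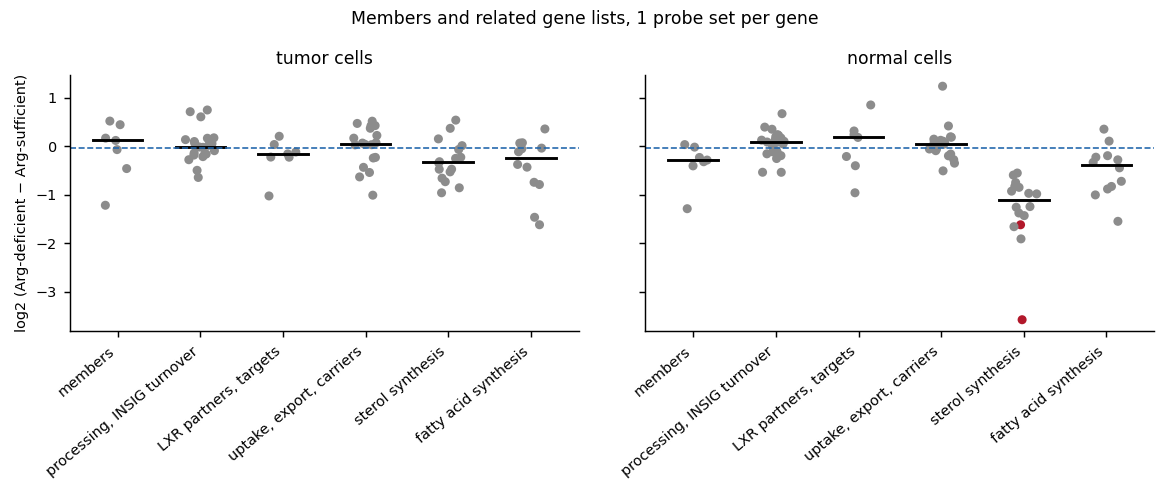
log2 change without arginine of every tested gene in the members and in 5 related lists, in tumor cells (left) and normal cells (right). Each point is 1 gene, black bars are list medians, the dashed line is the median of all tested genes, and dark red points passed the adjusted threshold. The sterol synthesis genes of normal cells have a median of -1.11, and 2 of them passed, where 2 of all 7192 genes fell past the threshold.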

How the data were processed

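The values analysed are intensities, 1 signal per probe set and array, which the authors made with Microarray Suite 5.0 and scaled to a common mean (the deposited table, linear scale). The run records that the authors deposited beside them hold other entries, read here only for chip lot, scan day and RNA codes. Signals below 1 were set to 1 before log2 was taken. Probe sets among the highest 54% of an array on at least 3 of 12 arrays were tested, without the 57 controls. limma 3.58.1 in R 4.3.3 was fitted with 1 mean per group and an intensity trend, and Benjamini-Hochberg adjustment covered the 9745 probe sets of each contrast. Members, gene lists and naming rule were all chosen with earlier results of these data known. Named genes are all members, in each list up to 4 that passed for arginine or otherwise the 2 with the smallest unadjusted p, and the 5 genes most like Insig1.

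Cultures were paired by experiment from the RNA codes and the design of independent pairs. Deviations from the group means correlated within pairs at 0.56, 0.04 and 0.42 in tumor cells and at 0.43, 0.42 and 0.38 in normal cells. The arginine-deficient tumor array of experiment 2 correlated more, at 0.275, with the arginine-sufficient one of experiment 3 than with its own partner. In tumor experiments 1 and 2 and normal experiment 2, the arrays of a pair came from different chip lots. The paired calls rest on this pairing. The block fit leaves 4 residual degrees of freedom, against 8. Same-group arrays correlated at 0.928 to 0.967. No source states separate animals, so p-values measure the spread between cultures of 1 line, and arrays give no counts. Alternatives covered the filter, offset, normalization, moderation, blocks, 1 line alone and leaving out each array. The fit was tested on simulated data with independent noise on each array and no experiment effect, so that test says nothing of the pairing. Python used numpy 2.4.6, pandas 2.3.3 and matplotlib 3.10.9.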

Additional observations from a re-analysis of the deposited data

Results flagged for a closer look

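Npc2 and Nr1h2 (1370208_at) were marked because all 3 tumor experiments were higher without arginine and all 3 normal experiments were lower. The difference of the responses (tumor minus normal) was 0.84 ± 0.35 for Npc2 (adjusted p = 0.824) and 0.52 ± 0.28 for Nr1h2 (adjusted p = 0.934), so neither passed the test of the difference itself. Such a pattern occurred in 208 of 9745 tested probe sets (2.13%).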

How the results depend on the processing

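In tumor cells 0 member probe sets passed for arginine under every alternative except the experiment as a block, where 3 did, and in normal cells and for the difference of the responses 0 passed under every alternative. With arginine, 1 passed between the lines except after quantile normalization, where 2 did, and without arginine 3 passed, or 2 to 4 when 1 array was left out. The 2-fold criterion (at least 6 of 9 ratios) was met by 2 of 22 combinations of probe set and line (6 of them untested), or by 1 to 4 without 1 array. The 2 were Insig1 in normal cells and Abcg1 1368103_at in tumor cells, of which the Abcg1 probe set was under the expression threshold on every array. The chip lot and scan day as random blocks were chosen after seeing the data and changed no call.

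Some changes that did not pass turned in sign. For Abcg1 in tumor cells the arginine change was 0.0173 with low signals raised, 0.0499 after quantile normalization and 0.00312 after median centring, and for Insig2 in normal cells it was 0.00592, 0.0619 and 0.0185 under those settings. Insig2 was -0.0331 between the lines without arginine with low signals raised, and Scap was -0.0115 in normal cells with scan day as a block. Over all probe sets of a gene, the mean gave 0.37 for Abcg1 in tumor cells and, for Nr1h2, -0.32 in tumor cells, 0.35 in normal cells and -0.66 for their difference. For Nr1h2 between the lines without arginine the mean gave 0.022, which did not pass. These means take in probe sets under the expression threshold on every array, and nothing is read from them. Leaving out 1 array gave -0.28 to 0.28 for Abcg1 in tumor cells, -0.53 to 0.12 in normal cells and -0.19 to 0.52 for the difference. It gave -0.21 to 0.14 for Insig2 in normal cells and -0.11 to 0.24 between the lines without arginine, -0.0413 to 0.123 for Scap in normal cells, -0.33 to 0.49 for the difference of Insig1, -0.358 to 0.0624 for that of Srebf1 on 1388426_at, and -0.0771 to 0.480 for Npc2 between the lines with arginine. The cause was not tested.

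With 3 arrays per group, an adjusted p over the threshold does not show that a gene did not respond.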
